A study of Drosophila melanogaster with 12 samples.

Results

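The genes described here encode the subunits of the 26S proteasome of Drosophila melanogaster. They were taken from 3 tables of RNA-seq values in S2 cells by their symbols: every row with a symbol that begins with Prosalpha, Prosbeta or Pros and a digit, with Rpn and a digit or with Rpt and a digit, and the rows of Mov34 and Tbp-1. This gave 44 rows, 23 of the core particle and 21 of the regulatory particle, out of 14542 rows in the SIN3 table and 14540 in each of the SAM-S and double tables. Of the 44 rows, 31 were tested by the authors in every table, 12 of the core and 19 of the regulatory particle. The other 13 are rows at or near 0 and are described further on.

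The proteasome is the large protease that degrades proteins tagged with ubiquitin. Its core particle is a barrel of stacked rings: outer rings of alpha subunits form the gate, and inner rings of beta subunits hold the proteolytic sites, which lie on beta1, beta2 and beta5. The regulatory particle caps the barrel: its base holds a ring of ATPases, Rpt1 to Rpt6, which unfold substrates and thread them into the core, and its lid holds the deubiquitinase Rpn11. In flies each subunit has a gene of its own, and several have additional copies, many of them used in the testis.

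S2 is a cultured Drosophila line of embryonic origin with features of hemocytes, the blood cells of the fly. Cells with the genotype given as wild type took up dsRNA for 4 days, against GFP as the control, against Sin3A (a scaffold of a histone deacetylase complex), against Sam-S (S-adenosylmethionine synthetase) or against both genes. Each of the 4 groups had 3 samples, but the labels say that replicates were combined, and each table holds 1 FPKM (fragments counted per unit of transcript length and relative to the mapped total) per gene and group. A value therefore has no spread between samples, the depth behind it is unknown, and the 3 tables share the GFP samples.

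The level of Sam-S fell from 242 FPKM to 62.0 in the SAM-S table and from 243 FPKM to 91.2 in the double table, and was called in both. In the SIN3 table it rose from 240 FPKM to 484 and was called there too (q = 0.00172 per the authors' deposited table). Sin3A mRNA stood at 67.9 FPKM with GFP dsRNA and 61.7 FPKM with the SIN3 label, and at 68.5 and 64.7 FPKM in the double table (the authors' deposited tables give q = 0.93 for both). The mRNA does not bear out these labels, so the groups are called by their labels here. Of 9 hemocyte marker rows, He, a hemocyte surface protein, was at 774 FPKM with GFP dsRNA and Pxn, which encodes peroxidasin, at 151 FPKM, while Hml was low at 0.779 FPKM. Summed over those 9 rows, the level was 1476 FPKM with GFP dsRNA and 929 FPKM with the SIN3 label, 1489 and 1549 FPKM in the SAM-S table, and 1498 and 999 FPKM in the double table. Of the 9 rows, 4 were called lower in the SIN3 table, 0 were called in the SAM-S table and 3 were called lower in the double table. Of all tested genes, 7.68%, 0.163% and 9.62% were called in these tables in either direction. He was a large part of these sums, at 774 and 425 FPKM in the SIN3 table and 788 and 367 FPKM in the double table. Not all rows fell: 1 of the 9 stood above its control in the SIN3 table and 2 did in the double table. In the double table the 5 muscle markers summed to 17.7 and 24.2 FPKM and the 5 germline markers to 86.2 and 54.7 FPKM, with none called. The part of these marker levels in the results on the proteasome was not tested, and in bulk RNA fewer cells of a type and less RNA per cell cannot be told apart. The 4 fat body markers summed to 0.262 FPKM and the 4 neuron marker rows to 3.63 FPKM among the GFP values of the SIN3 table.

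The proteasome genes were among the more abundant mRNAs of these cells. Counts, medians and rankings below cover the 44 rows, with medians and rankings over tested rows unless stated. They leave out 3 constitutive subunits whose symbols do not show them, CG17331 (Prosbeta4), CG13349 (Rpn13) and CG13779 (Sem1), except where these are named. Among GFP samples as the SIN3 table gives them, the 12 tested constitutive core genes had a median of 147 FPKM, and the 17 constitutive regulatory genes a median of 95.4 FPKM, beside 24.1 FPKM for all tested genes. The core median lay above 91.3% and the regulatory median above 86.0% of the tested genes. The 12 tested constitutive core genes ran from 83.4 FPKM for Prosbeta1 to 238 FPKM for Pros35, 2.86 times as much. The 17 constitutive regulatory genes ran from 68.6 FPKM for Pros54 to 226 FPKM for Pros45, a ratio of 3.29. Variant rows lay below these ranges. The highest core levels among these rows were those of the alpha subunits Pros35, Pros25 (230 FPKM) and Pros28.1 (216 FPKM), and CG17331 lay above them at 302 FPKM. Pros45, the ATPase Rpt6, stood apart from the other ATPases, of which the next highest was Rpt1 at 124 FPKM. FPKM is a level per length, so levels can be set beside each other across genes, but without replicate values neighbours in this order cannot be told apart.

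**Figure D1:**
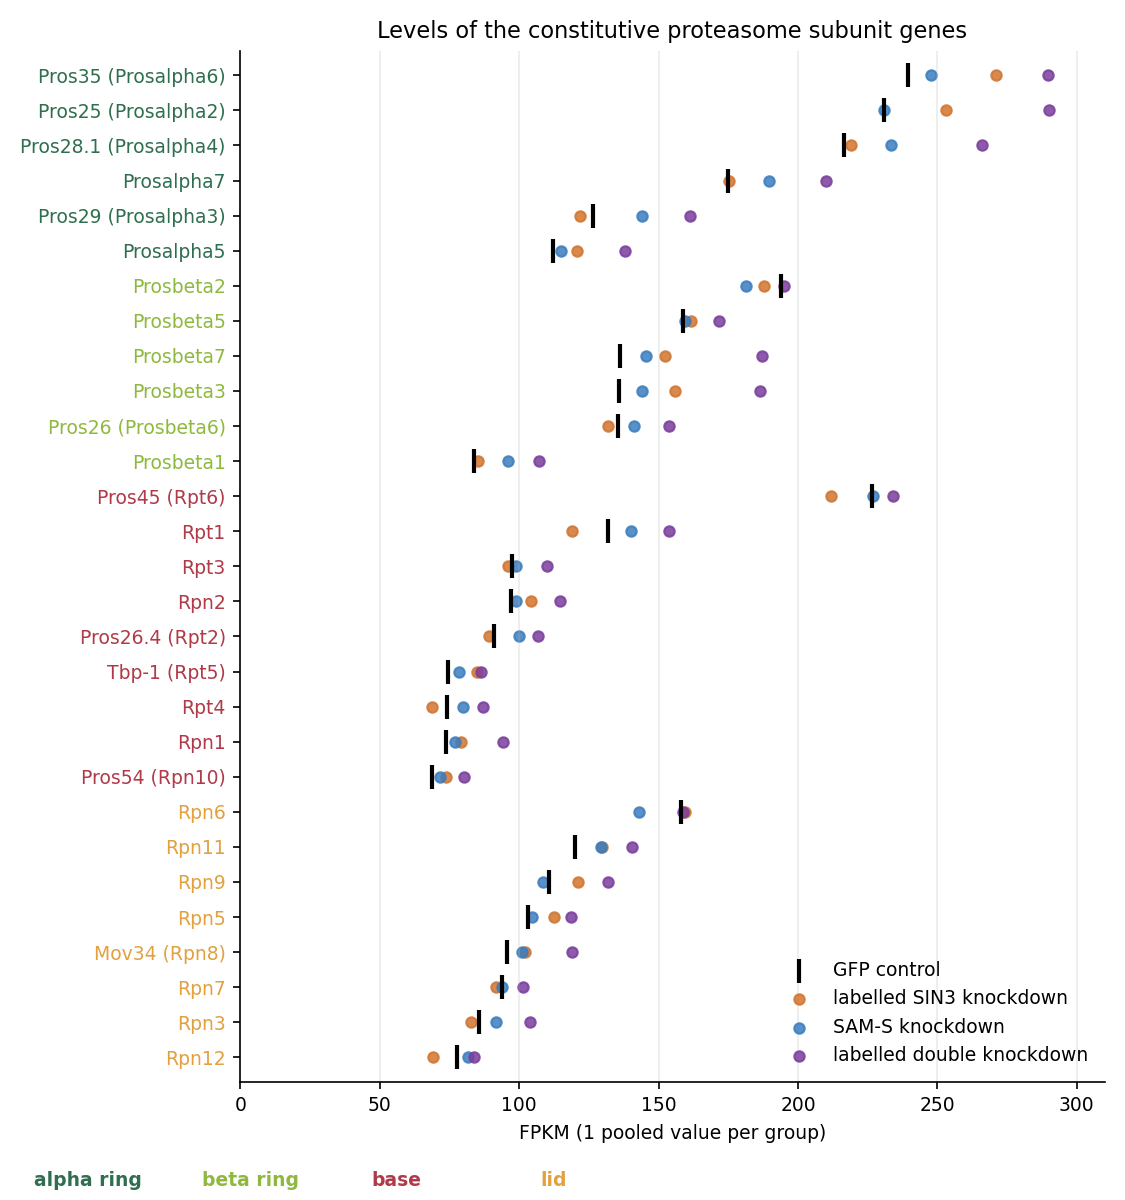
FPKM of the 29 tested constitutive proteasome genes, 1 pooled value per group, ordered within the alpha ring, beta ring, base and lid by the level in the GFP control (black bars, from the SAM-S table). Symbols are those of the tables, with the current symbol in parentheses. The points of the samples labelled double knockdown lie right of the control bar for most genes, and those of Prosbeta2 and Rpn6 lie on it.

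No proteasome gene passed the authors' test in any table. At a q under 0.05 in the authors' deposited tables, 0 of 31 were called in the SIN3 table, where 7.68% of all tested genes were called. The count was also 0 of 31 in the SAM-S table, beside 0.163% of all tested genes, and 0 of 31 in the double table, beside 9.62%. At an unadjusted Cuffdiff p under 0.05, 0 of 31 members passed in the SIN3 table (18.0% of all tested genes did) and 0 of 31 in the SAM-S table (2.80% did). Of the 31 members, 3 passed at that level in the double table, where 20.5% of all tested genes passed; all 3 were higher in the knockdown, as were 8.92% of all tested genes. The members' share was thus below the background in either direction and close to it among higher genes.

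Most members stood slightly above the control in the double table. In the samples labelled double knockdown 28 of 31 members stood above the control, which is 90.3%, beside 48.4% of all tested genes. Of the tested genes with at least 10 FPKM in the higher group, 53.4% did. The median log2 ratio was 0.29 over the core genes and 0.21 over the regulatory genes, beside -0.014 over all tested genes and 0.032 over those with at least 10 FPKM. The summed level of the 12 core genes was 1956 FPKM with GFP dsRNA and 2356 FPKM in the knockdown, a ratio of 1.20, and that of the 17 constitutive regulatory genes was 1790 and 2024 FPKM, a ratio of 1.13. Over all tested genes the ratio of sums was 0.937. The members ranged from -0.076 to 0.45 on the log2 scale. Their standard deviation across genes was 0.13, beside 0.47 across tested genes with at least 10 FPKM. These are descriptions of 1 pooled value per group: the median approximate standard error of a member's log2 ratio was 0.18, and the median ratio over all 31 was 0.22.

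In the single knockdowns the medians were nearer to 0. After SAM-S knockdown 26 of 31 members (83.9%) stood above the control, beside 45.2% of all tested genes, with medians of 0.071 for the core and 0.057 for the regulatory genes, beside -0.018 for all tested genes. In the samples labelled SIN3 knockdown 19 of 31 (61.3%) stood above it, beside 48.3% of all tested genes, with medians of 0.034 for the core and 0.019 for the regulatory genes. These medians near 0 depended on the rows used: the core median was 0.075 over all rows above 0, and the regulatory median was 0.0016 over rows of a single symbol and 0.10 with the added subunits CG13349 and CG13779. The ratio of summed constitutive levels was 1.04 for the core and 1.03 for the regulatory particle in the SAM-S table, and 1.05 and 1.02 in the SIN3 table. Because the tables share the GFP samples, their ratios are not independent of each other.

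**Figure D2:**
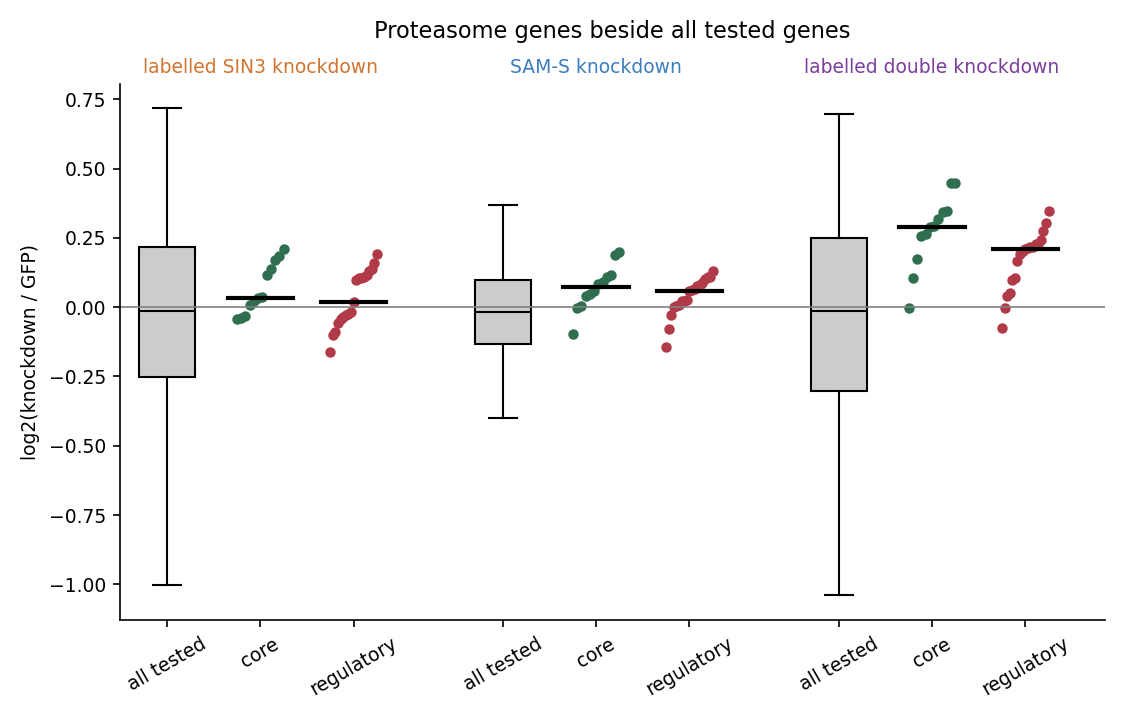
Log2 ratio of knockdown over GFP for all tested genes (grey boxes: quartiles and median, whiskers from the 5th to the 95th percentile), the 12 tested core genes and the 19 tested regulatory genes, in the 3 tables. Thick lines are medians. Every proteasome gene lies within the whiskers, and in the double table the medians of 0.29 and 0.21 lie above the median of all tested genes.

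The alpha ring was the most even part in the double table. These subunits build the gate of the core and its docking surface for the cap. The 6 tested alpha genes lay between 0.26 and 0.34 on the log2 scale, with a standard deviation across genes of 0.033, beside 0.19 across the 6 tested beta genes, 0.079 across the base and 0.10 across the lid. In the SAM-S table the base, at 0.043, was more even than the alpha ring, at 0.068. The median approximate standard error of a single gene's ratio in the double table was 0.18 in the alpha ring and 0.18 in the beta ring. Whether the parts differ in evenness was not tested. Pros25, which encodes Prosalpha2, stood at 232 FPKM with GFP dsRNA and 290 FPKM in the knockdown, and Pros28.1, which encodes Prosalpha4, at 218 and 266 FPKM. Prosalpha5 stood at 113 and 138 FPKM, and Prosalpha7 at 176 and 210 FPKM. Pros35, which encodes Prosalpha6, had the highest control level of the tested alpha genes at 241 FPKM and stood at 290 FPKM in the knockdown. All 6 levels were above their control, by 1.19 to 1.27 times.

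Pros29, which encodes Prosalpha3, had the highest ratio of the alpha ring: 127 FPKM with GFP dsRNA and 161 FPKM in the samples labelled double knockdown, a log2 ratio of 0.34 with an approximate 95% interval from -0.0089 to 0.70 (p = 0.0547 and q = 0.259 per the authors' deposited table). In the SAM-S table Pros29 stood at 126 and 144 FPKM (0.19, interval -0.15 to 0.53), and in the SIN3 table at 126 and 122 FPKM (-0.044, interval -0.40 to 0.32), the lowest ratio of the core there. Pros35 had the second highest core ratio in the SIN3 table, at 238 FPKM with GFP dsRNA and 271 FPKM in the knockdown (0.19, interval -0.15 to 0.52). Pros25 was near its control in the SAM-S table, at 231 FPKM in both groups. Each of these intervals holds 0.

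The 6 tested beta genes spread more widely than the alpha genes in the double table, with a standard deviation across genes of 0.19. That is about the size of the median approximate standard error of a single beta gene's ratio, 0.18. In the double table, the genes of the proteolytic subunits Prosbeta1, Prosbeta2 and Prosbeta5 had a median log2 ratio of 0.10, and Prosbeta3, Pros26 (Prosbeta6) and Prosbeta7, which have no proteolytic site, had a median of 0.45. The sets overlapped, with Prosbeta1 at 0.35 above Pros26 at 0.17, and this grouping was not among the planned comparisons. The remaining beta gene, CG17331 (Prosbeta4), lay at 0.38. The difference between these small sets was not tested, because the tables hold no replicate values. Summed levels were 439 and 474 FPKM for the proteolytic subunits, a ratio of 1.08, and 410 and 527 FPKM for Prosbeta3, Pros26 and Prosbeta7, a ratio of 1.29.

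Prosbeta7 (dm3, chromosome 3R, 1182734 to 1184086) had the highest log2 ratio of any member. It stood at 137 FPKM with GFP dsRNA and 187 FPKM in the samples labelled double knockdown, 1.36 times as much, a log2 ratio of 0.45 with an approximate interval from 0.099 to 0.80. In the authors' deposited table its Cuffdiff p was 0.0107 and its q 0.0865, the smallest q of the members. In the SIN3 table Prosbeta7 stood at 136 and 152 FPKM (0.17, interval -0.18 to 0.52), and in the SAM-S table at 136 and 145 FPKM (0.092, interval -0.25 to 0.43). Both single-knockdown intervals hold 0.

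Prosbeta3 was next, at 137 FPKM with GFP dsRNA and 186 FPKM in the samples labelled double knockdown (0.45, interval 0.012 to 0.88; p = 0.0431 and q = 0.222 in the authors' deposited table). It also had the highest core ratio of the SIN3 table, at 135 and 156 FPKM (0.21, interval -0.23 to 0.64). Its row shares its interval with other rows. Prosbeta1, which carries the caspase-like site, stood at 84.3 and 107 FPKM in the double table (0.35) and had the highest core ratio of the SAM-S table, at 83.8 and 96.1 FPKM (0.20, interval -0.28 to 0.68).

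Prosbeta2 and Prosbeta5, which carry the trypsin-like and chymotrypsin-like sites, had the lowest core ratios of the double table. Prosbeta2 stood at 195 FPKM in both groups, a log2 ratio of -0.0014 (interval -0.35 to 0.35). In the SAM-S table it stood at 194 and 181 FPKM (-0.097), the lowest core ratio there, and in the SIN3 table at 193 and 188 FPKM (-0.038). Prosbeta2 was thus the core gene with no level above its control. Its row shares its interval with other rows. Prosbeta5 stood at 160 and 172 FPKM in the double table (0.10, interval -0.24 to 0.45), at 159 FPKM in both groups of the SAM-S table and at 158 and 162 FPKM in the SIN3 table. These intervals are wide enough to hold the median of the core.

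**Figure D3:**
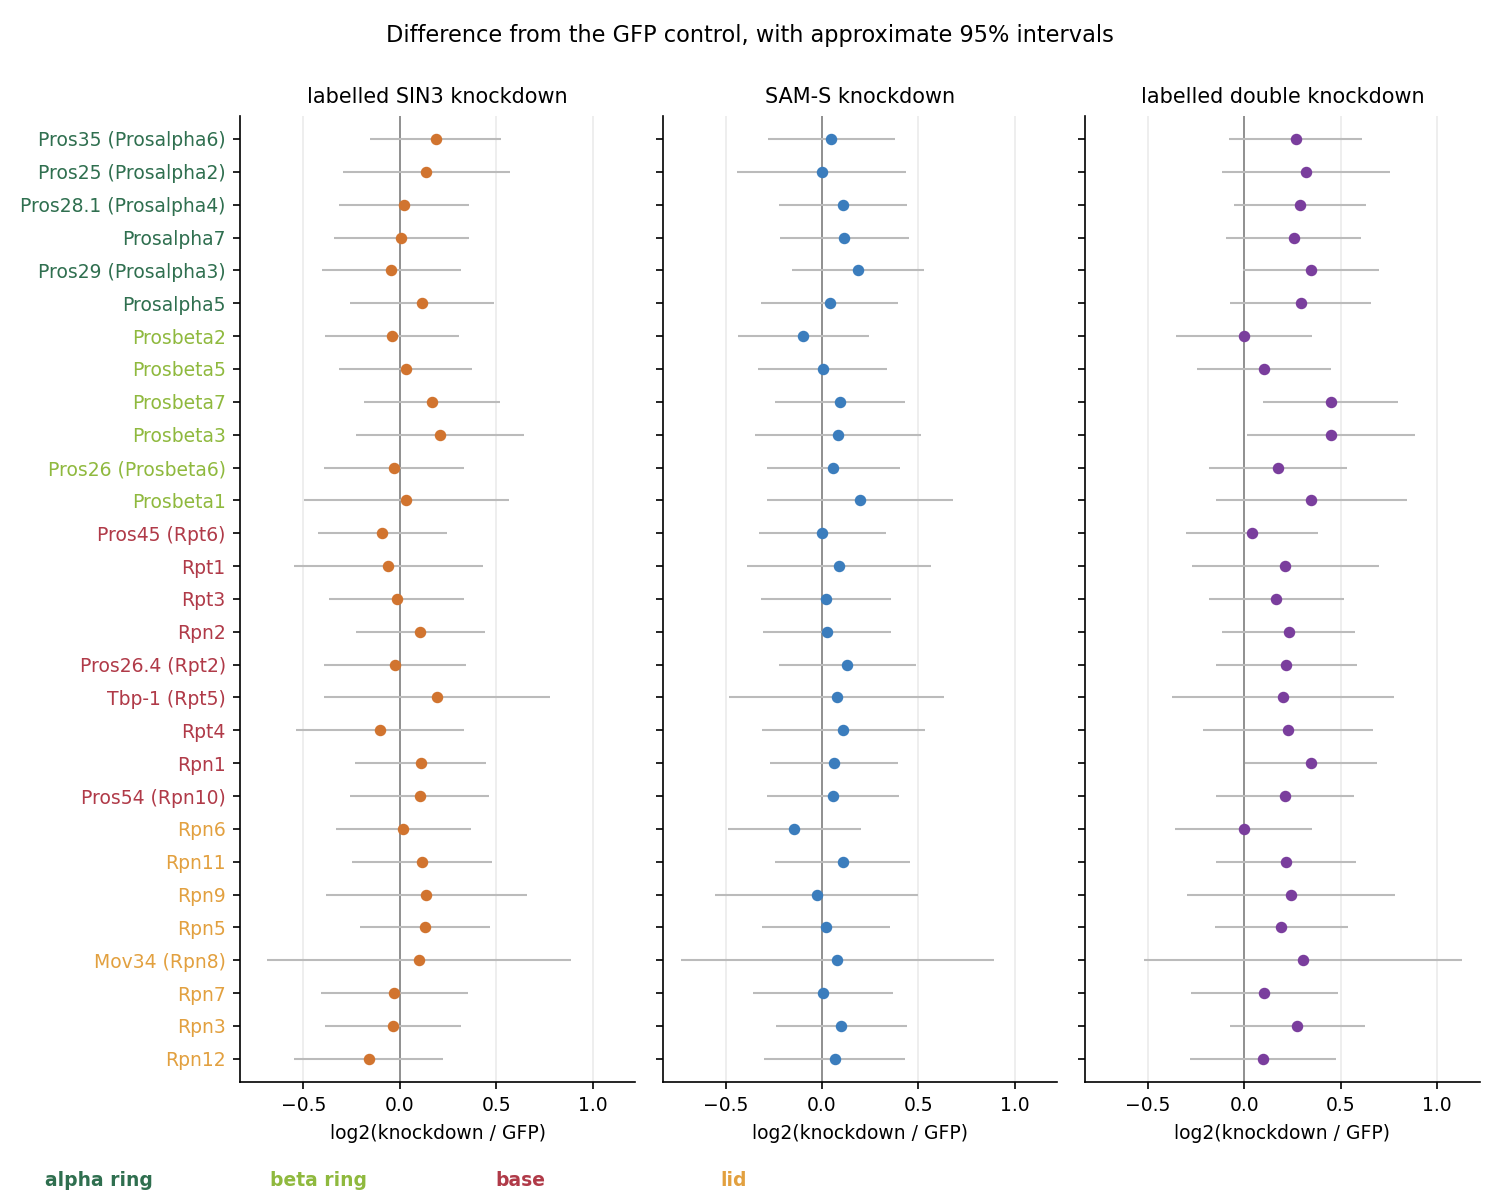
Log2 ratio of knockdown over GFP (points) for the 29 tested constitutive genes in each table, with approximate 95% intervals derived from the authors' test statistic (grey lines), which may not measure the spread between samples. In the double table the intervals of Prosbeta7, Prosbeta3 and Rpn1 lie above 0, and in the other 2 tables every interval holds 0.

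In the base of the regulatory particle, the genes of the ATPase ring lay close together in the double table. Their 6 log2 ratios had a median of 0.21, and 5 of them lay between 0.16 and 0.23. The exception was Pros45 (Rpt6), the most abundant ATPase mRNA, at 228 FPKM with GFP dsRNA and 234 FPKM in the samples labelled double knockdown (0.039, interval -0.30 to 0.38). The row of Pros45 shares its interval with other rows. Rpt4 stood at 74.5 and 87.2 FPKM (0.23) and Pros26.4 (Rpt2) at 91.7 and 107 FPKM (0.22).

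In the single knockdowns, Pros26.4 had the highest regulatory ratio of the SAM-S table, at 91.1 FPKM with GFP dsRNA and 99.8 FPKM in the knockdown (0.13, interval -0.22 to 0.49), followed by Rpt4 at 74.1 and 80.0 FPKM (0.11, interval -0.31 to 0.53). In the SIN3 table Rpt4 stood at 73.8 and 68.8 FPKM (-0.10, interval -0.54 to 0.34), and 5 of the 6 ATPase genes were below their control there. The sixth was Tbp-1 (Rpt5), at 74.2 and 84.9 FPKM (0.19, interval -0.39 to 0.78), the highest regulatory ratio of that table among the 44 rows. CG13349 (0.20) and CG13779 (0.26) lay above it. Tbp-1 shares its interval with other rows. Rpt1 has a row of its own in the SIN3 table and a row merged with CG17985 in the other 2 tables: its control value differs between the SAM-S and SIN3 tables by a ratio of 1.07, against at most 1.01 for the other members.

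Rpn1 (chromosome 3L, 19908151 to 19911260), a scaffold of the base that binds shuttle factors, had the highest regulatory ratio among the 44 rows in the double table, below that of CG13349 (0.51). Rpn1 stood at 74.0 FPKM with GFP dsRNA and 94.1 FPKM in the knockdown (0.35, interval 0.0016 to 0.69; p = 0.0480 and q = 0.238 per the authors' deposited table). In the single knockdowns Rpn1 stood at 73.3 and 79.0 FPKM in the SIN3 table (0.11) and at 73.6 and 76.9 FPKM in the SAM-S table (0.063). Rpn2, the other large scaffold of the base, stood at 97.8 and 115 FPKM in the double table (0.23). Pros54, the ubiquitin receptor Rpn10, stood at 69.2 and 80.2 FPKM (0.21).

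In the lid, 7 of the 8 tested genes in the 44 rows stood above their control in the double table, with a median log2 ratio of 0.20. Mov34, which encodes Rpn8, the partner of the deubiquitinase Rpn11, was the highest at 96.3 and 119 FPKM (0.30), but its interval of -0.52 to 1.13 was the widest of the constitutive members, and it shares its interval on the chromosome with other rows. Rpn3 stood at 86.0 and 104 FPKM (0.27), and Rpn11 itself at 121 and 140 FPKM (0.22, interval -0.15 to 0.58).

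Rpn6, a lid subunit that clamps the cap onto the core, was the one tested lid gene of the 44 rows not above its control in the double table. Rpn6 shares its interval with other rows. Its mRNA was the most abundant of the 8 tested lid genes in the 44 rows, below that of CG13779 (229 FPKM). Rpn6 stood at 159 FPKM in both groups of the double table (-0.0036, interval -0.36 to 0.35). In the SAM-S table it stood at 158 and 143 FPKM, a log2 ratio of -0.14 (interval -0.49 to 0.20) and the lowest of all members there. In the SIN3 table it stood at 157 and 159 FPKM (0.019). Rpn12 (chromosome 3L, 16576128 to 16577122) had the lowest ratio of the SIN3 table, at 77.5 and 69.3 FPKM (-0.16, interval -0.55 to 0.23), while it stood at 77.8 and 81.5 FPKM in the SAM-S table and at 78.3 and 83.7 FPKM in the double table.

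Of the variant subunits, which are additional copies of constitutive genes, 2 were tested. Rpt6R (chromosome 3R, 26407920 to 26409419), a copy of Rpt6, stood at 10.8 FPKM with GFP dsRNA and 10.3 FPKM in the samples labelled double knockdown (-0.076, interval -0.66 to 0.51), the lowest ratio of any member there. The row of Rpt3R, merged with CG16908, stood at 19.8 and 20.5 FPKM (0.053), at 19.6 and 18.6 FPKM in the SAM-S table (-0.079) and at 19.6 and 21.9 FPKM in the SIN3 table (0.16). The reads of this row cannot be divided between its genes. The other variants, among them Prosalpha3T, Pros28.1A, Pros28.1B, Prosalpha6T, Prosbeta2R1, Prosbeta2R2, Rpt4R and Rpn12R, stood at 0.229 FPKM or less in every group. Of 6 testis markers, 1, mia, was abundant enough to be tested.

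Prosalpha1 is listed at 0 FPKM in every group, in a row of its own and in a row merged with CG30382. CG30382 carries the RefSeq symbol Prosalpha1R, and the copies lie beside each other. An alpha ring needs this subunit, and every other constitutive gene of the core had at least 83.4 FPKM. Whether the 0 is a failed estimate for copies whose reads are alike was not tested. No level is given for Prosalpha1.

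Constitutive subunits that the symbols in the tables do not show were looked up through RefSeq synonyms. Of 33 constitutive genes, 30 are among the 44 rows, and the other 3 are CG17331 (Prosbeta4), CG13349 (Rpn13) and CG13779 (Sem1). CG13349, a ubiquitin receptor of the base, stood at 73.5 FPKM with GFP dsRNA and 104 FPKM in the samples labelled double knockdown, a log2 ratio of 0.51 (interval 0.15 to 0.86; p = 0.00545 and q = 0.0543 in the authors' deposited table), which is above the ratio of any of the 31 tested members. CG17331 was the most abundant proteasome mRNA in the control, at 306 FPKM, and stood at 398 FPKM in the knockdown (0.38, interval 0.013 to 0.75; p = 0.0423 and q = 0.219 in the authors' deposited table). CG13779 stood at 229 and 262 FPKM (0.19). In the SIN3 table these genes stood at log2 ratios of 0.20, 0.14 and 0.26, and in the SAM-S table at 0.11, 0.15 and -0.050, in the order CG13349, CG17331 and CG13779. None of the 3 was called in any table.

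The knockdowns were set beside each other through their controls, as differences between the log2 ratios over GFP of 2 tables. For double over SIN3, by their labels, the median difference was 0.18 over the 31 members. Over the 7810 genes tested in every table it was -0.018. Rpt1 is merged with CG17985 in the double table but not in the SIN3 table, so its difference of 0.27 sets unlike rows beside each other. For double over SAM-S knockdown the median was 0.14, beside -0.0015. Over the 12 core genes these medians were 0.22 and 0.17, and over the 19 regulatory genes both were 0.13. No test of these differences can be made from pooled values.

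Genes that act with the proteasome were described from lists. Among 9 activators, assembly factors and regulators, 0 were called in any table, and the median log2 ratio was 0.028 (SIN3), 0.035 (SAM-S) and 0.11 (double). cnc, the fly counterpart of the Nrf factors, which activate proteasome genes in mammals, had the highest ratio of the list in the double table, at 17.0 and 24.5 FPKM (0.53; the authors' deposited table gives q = 0.506). Its partner maf-S stood at 82.8 and 99.8 FPKM (0.27) and was the highest of the list in the SAM-S table, at 82.4 and 90.7 FPKM (0.14). Keap1, a repressor of cnc that is not on the list and was added after its values were seen, was called: it rose from 14.1 to 23.1 FPKM with the SIN3 label (log2 ratio 0.71; q = 0.0168 per the authors' deposited table) and from 14.2 to 26.0 FPKM in those labelled double knockdown (0.87; q = 0.00157 per the authors' deposited table). In the SAM-S table Keap1 stood at 14.1 and 15.5 FPKM (0.13).

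Pomp, the chaperone that matures the core, stood at 33.8 and 40.6 FPKM in the double table (0.27), and REG, the alternative cap of the core, at 266 and 269 FPKM (0.015). PI31, a proteasome-binding regulator, had the lowest ratio of the list in the double table, at 84.3 and 68.2 FPKM (-0.31), and in the SIN3 table, at 83.4 and 71.2 FPKM (-0.23). The lowest in the SAM-S table was the row of ntc merged with CG32264 (-0.12). Genes of this list thus lay on both sides of their control.

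Among 11 ubiquitin genes, shuttle factors and Cdc48 complex members, 0 were called in any table, with medians of 0.053 (SIN3), -0.030 (SAM-S) and 0.099 (double). Npl4, a cofactor of the Cdc48 segregase, was the highest in the double table, at 34.9 and 46.9 FPKM (0.42; p = 0.0236 and q = 0.149 in the authors' deposited table), and the highest in the SIN3 table (0.24). Rad23, which carries ubiquitinated proteins to the proteasome, stood at 226 and 296 FPKM in the double table (0.39; p = 0.0323 and q = 0.182 in the authors' deposited table). Uch-L3 was the lowest, at 56.8 and 43.9 FPKM (-0.37). In the SAM-S table the highest was p47 (0.11) and the lowest the polyubiquitin gene Ubi-p63E, at 135 and 115 FPKM (-0.23); in the SIN3 table the lowest was Ubi-p5E (-0.074).

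The COP9 signalosome, a complex that resembles the lid in its subunits, served as a comparison. Of its 8 tested genes 0 were called, and its median log2 ratio was 0.019 (SIN3), 0.0080 (SAM-S) and 0.061 (double), where the lid had medians of 0.059, 0.044 and 0.20. CSN4 was the highest in the double table, at 31.3 and 38.9 FPKM (0.31), and in the SIN3 table, at 31.0 and 39.3 FPKM (0.34), and CSN6 in the SAM-S table (0.18). The lowest were CSN5 (-0.045) in the double table, CSN6 (-0.081) in the SIN3 table and alien (-0.068) in the SAM-S table. The difference between the complexes was not tested.

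**Figure D4:**
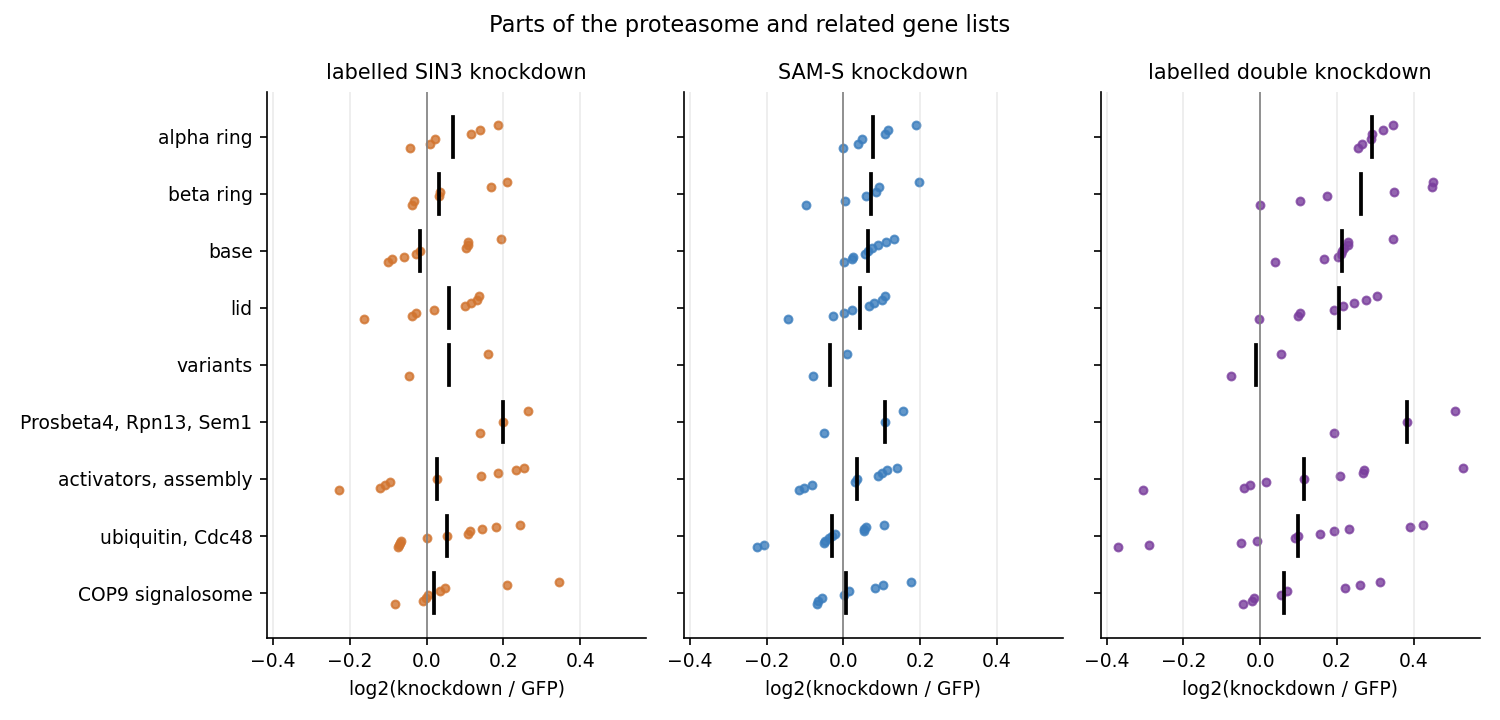
Log2 ratio of knockdown over GFP for the tested genes (points) of the parts of the proteasome and of related lists in the 3 tables, with medians as black bars. In the double table the 6 alpha ring genes lie close together between 0.26 and 0.34, while the related lists spread to both sides of 0.

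The members are spread over several chromosome arms, and some are neighbours, such as Rpn9 and Tbp-1 on 3R. On dm3, the 30 constitutive rows lie on chromosome arms 2R (9 rows), 3R (9 rows), 3L (5 rows), X (4 rows) and 2L (3 rows). Of the 31 tested members, 14 have a row listed with the same interval as other rows, and 17 have an interval of their own. The 14 are Pros25, Prosbeta1, Prosbeta2, Prosbeta3, Rpn6, Rpn7, Rpn9, Mov34, Rpt1, Rpt3R, Rpt4, Pros26.4, Pros45 and Tbp-1. A shared interval does not show that the genes overlap, but reads may be shared where they do. In the current annotation the 33 constitutive genes had a median of 2 introns, as did all protein-coding genes, and a median of 1215 exonic bases against 1699. Genes without an intron made up 12.1% of the constitutive subunits, 37.5% of the 16 variant subunits and 16.4% of all protein-coding genes.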

How the data were processed

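RNA-seq was run on 12 samples of S2 cells, 3 in each of 4 groups. Per the submitters' processing notes, bcl2fastq and Cuffdiff were used with genome build dm3, with no versions named. The tables deposited by the authors hold, per the file headers, an FPKM for the control and the knockdown, a test statistic (a score), a p-value and a q-value per gene. Per the labels the replicates were combined, so no test of samples could be run, and it cannot be told whether the deposited p-values measure the spread between samples.

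Log2 ratios were taken of the deposited FPKM values, with no pseudocount. A gene was called at a deposited q-value under 0.05. The median of the normal quantile of p over the statistic was 1.73 to 1.74, near the root of 3, so an approximate standard error was taken by dividing the log2 ratio by the statistic and by the root of 3, and gave approximate 95% intervals. This step and the Benjamini-Hochberg adjustment were tested on simulated data. Python 3.11.15, pandas 2.3.3, numpy 2.4.6 and scipy 1.17.1 were used.

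The members and gene lists were chosen with earlier results of these data known. Named in full were, per table and particle, the 2 highest and 2 lowest tested members with at least 10 FPKM in the higher group and members with p under 0.05; of the other lists, called genes and the highest and lowest. Other genes named beside these were chosen after their values were seen. All 44 members matched a RefSeq symbol, 13 of them by a synonym. Gene structures came from an annotation of another build, from which no coordinates are printed; dm3 starts were changed to count from 1. Promoter motifs were not analysed here.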

Additional observations from a re-analysis of the deposited data

How the results depend on the processing

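Of 176 values computed under alternatives, 174 kept their call and moved little. The 42 alternative medians over the genes of a particle moved by at most 0.080 on the log2 scale under a pseudocount of 1 FPKM, all rows above 0, a minimum of 10 FPKM, centring on all tested genes, rows of a single symbol, constitutive subunits alone, or the addition of the 3 constitutive subunits that the symbols do not show; the last 2 were chosen after seeing the data. None of these medians changed sign, although the regulatory median of the SIN3 table, 0.019, came to 0.0016 with rows of a single symbol or with all rows above 0 and to 0.10 with the added subunits, and the core median there, 0.034, to 0.075 with all rows above 0. The counts of called genes stayed at 0 at a q under 0.01 and with q recomputed. In the double table they came to 2 core genes and 1 regulatory gene at an unadjusted p under 0.05, by the construction of that rule. No paired analysis was possible because the tables hold 1 pooled value per gene and group, and for the same reason no replicate could be left out. Depth is unknown. Members at or near 0 cannot be compared between groups.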
